A study of Arabidopsis thaliana with 8 samples.

Results

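The transcriptome of leaves overexpressing the microProtein miP1a was compared with that of the wild type across all genes that the deposited table lists. The libraries belonging to the comparison are the 2 titled as 35S::miP1a and the 2 titled as Col-0, which are 4 of the 8 libraries of the series, and every one of the 21960 genes of the table was used. All plants were in the Col-0 ecotype, 4 weeks old and untreated, and were kept under long days (16 h light, 8 h dark) at 20 °C according to the sample labels, whereas the study's methods give another temperature. Col-0 plants were wild type and carried no transgene. The 35S::miP1a plants carried the *miP1a* coding sequence with a FLAG tag under the constitutive cauliflower mosaic virus 35S promoter, which is active in most cell types. The other libraries belong to *co-SAIL*, a *constans* mutant, and to 35S::miP1b, which overexpresses the related microProtein, and they are used here only to show where 35S::miP1a differed. The series text names 1 transgenic line for each microProtein. The sources used here give neither the number of plants in a library nor the hour of harvest, and in the series text the paired libraries of each genotype are technical replicates. Genotype and plant pool then cannot be told apart. No values for single libraries were used, so each value below stands for the 2 libraries of a genotype together, and its error covers read counting and the dispersion of the authors' fit alone.

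MicroProteins are small proteins with a single protein interaction domain that bind larger relatives and hold them in complexes that do not work as usual. miP1a has a B-Box zinc finger and binds CONSTANS (CO), a B-Box transcription factor that in long days turns on *FLOWERING LOCUS T* (*FT*) in the leaf veins. Leaves also switch, under wounding, pathogens, drought or high sugar, between programmes driven by jasmonate, salicylic acid and abscisic acid, and they deposit red anthocyanin pigments through a set of enzymes under the control of MYB, bHLH and WD40 proteins. The groups of genes described here follow these programmes.

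The overexpressed gene rose as its label requires. For *miP1a* (AT3G21890, chromosome 3 from 7708833 to 7709933 in TAIR10.1, 1 exon) there were 24 reads in Col-0, 25 in *co-SAIL*, 124058 in 35S::miP1a and 13 in 35S::miP1b. The native gene and the transgene share the coding sequence, so these reads do not separate the transgene from the endogenous copy. The nearest tested gene in the same region, the cyclin gene *CYCP2;1*, was counted at 472 reads in Col-0 and 422 in 35S::miP1a, a difference that did not pass the test (FDR = 0.793, deposited edgeR likelihood ratio test). *miP1b* stayed at 3, 1, 4 and 37451 reads in Col-0, *co-SAIL*, 35S::miP1a and 35S::miP1b, so only its own line was high.

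Reads assigned to genes numbered about 33579615 for Col-0 and 33341934 for 35S::miP1a, close to each other, so that 3 reads, taken as the floor, correspond to 0.0869 and 0.0895 CPM, reads scaled to the library size. In what follows a gene is said to have risen or fallen in 35S::miP1a where the FDR of the deposited edgeR test was below 0.001, and to be up- or down-regulated where the change was also at least 4-fold. The log2 changes are 35S::miP1a over Col-0, given with their standard error, and the median change over all genes was 0.00. Leaf markers were abundant. The 5 mesophyll markers summed to 29115 CPM in Col-0 and 33735 CPM in 35S::miP1a, 2 of them rising. The 5 flower markers in the table summed to between 15 and 22 reads in each genotype, the defining markers *AP1* and *AP3* had at most 4 reads. The 4 root markers in the table summed to 73.6 CPM in Col-0 and 72.0 CPM in 35S::miP1a. Of these *SHR* had 537, 375, 385 and 473 reads and *SCR* 2001, 1776, 2026 and 2216 reads in Col-0, *co-SAIL*, 35S::miP1a and 35S::miP1b, while *IRT1* and *COBL9* had at most 2 reads. Guard cell markers summed to 64.4 and 60.2 CPM and phloem markers to 132 and 184 CPM in Col-0 and 35S::miP1a, and none of these genes passed the test.

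Of the 21960 genes, 124 (0.565%) were up-regulated and 68 (0.310%) were down-regulated in 35S::miP1a. At an FDR below 0.001 without a limit on the fold change, 434 genes (1.98%) rose and 317 (1.44%) fell. By the mean over all 8 libraries, most of the genes on both lists were less abundant than the median gene of the table. This mean understates genes that are high in 1 genotype alone. In the higher of Col-0 and 35S::miP1a, 67 of the 124 up-regulated and 17 of the 68 down-regulated genes had over 100 reads. The median of their mean abundance was 1.36 CPM for the up-regulated and 0.691 CPM for the down-regulated genes, against 11.1 CPM for all genes. In Col-0, 37 of the 124 up-regulated genes were at or under the floor and 21 had 0 reads, so these genes were close to silent in the wild type leaf. Conversely, 24 of the 68 down-regulated genes were at or under the floor in 35S::miP1a. In total the 123 up-regulated genes other than *miP1a* went from 10783 reads in Col-0 to 116292 in 35S::miP1a, and the 68 down-regulated genes from 40897 to 7807 reads. The calls rest on a common dispersion of 0.0133 in the authors' fit, a coefficient of variation of 11.5%. At a dispersion of 0.16, a coefficient of variation of 40%, 39 genes (0.178%) remained up-regulated and 12 (0.0546%) down-regulated. Genes that rose or fell by less than 4-fold were not counted at this dispersion, and their calls are less firm. *LHY* and AT1G02360, with log2 changes of 1.63 and -1.57, had FDR values of 0.451 and 0.512 there (negative binomial test).

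**Figure D1:**
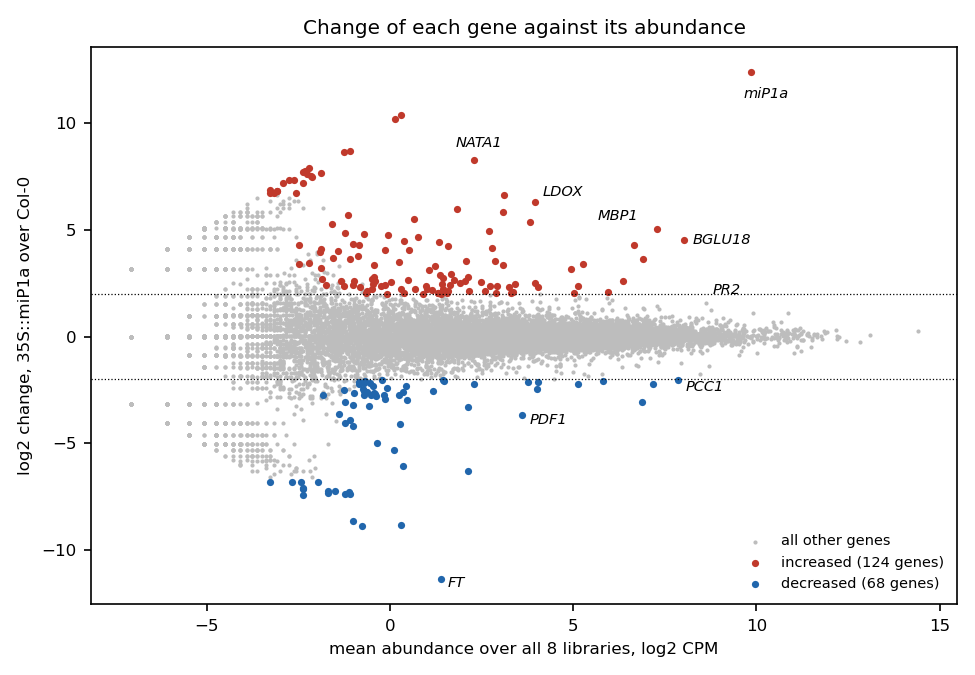
Each point is 1 of the 21960 genes, with the mean abundance over all 8 libraries in log2 CPM on the x axis and the log2 change of 35S::miP1a over Col-0 on the y axis; red and blue mark the 124 up-regulated and 68 down-regulated genes, and dotted lines mark a 4-fold change. Most red and blue points lie at the left, at low abundance, while *BGLU18* and *MBP1* combine high abundance with changes of 23- and 33.2-fold and *PR2* lies below the line.

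**Figure D2:**
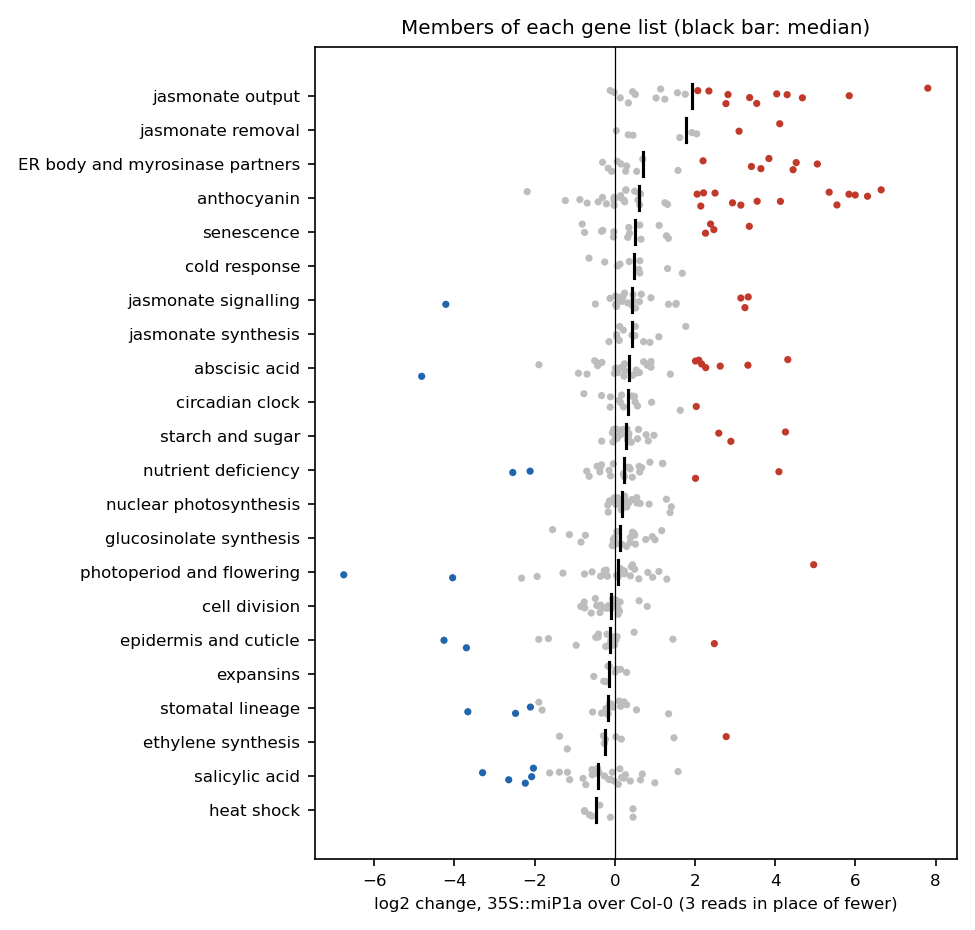
Each point is 1 member of a gene list with more than 3 reads in Col-0 or 35S::miP1a, at its log2 change with 3 reads put in place of fewer; red and blue mark up- and down-regulated members, and the black bar is the median of the list. The lists of jasmonate output and jasmonate removal have the highest medians, 1.92 and 1.77, and in the anthocyanin list a separate group of members lies above 2.

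Genes of anthocyanin synthesis were the list with the most up-regulated members. All lists were chosen with earlier results of these data known, so the counts within them are descriptive and no independent support. Of the 42 genes listed, 41 were in the table, and 14 were up-regulated and 0 down-regulated, against 0.565% and 0.310% of all genes. Of the 11 late enzymes and transport genes, 8 were up-regulated and 9 rose, and their median log2 change was 3.14. At the same time none of the 5 genes of the phenylpropanoid entry passed the test, and of the 6 early flavonoid genes 1 did, *TT7*.

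Dihydroflavonol 4-reductase, the first enzyme committed to anthocyanins, is encoded by *DFR* (AT5G42800), which had 19 reads in Col-0, 33 in *co-SAIL*, 1070 in 35S::miP1a and 23 in 35S::miP1b. Its log2 change over Col-0 was 5.83 ± 0.37 (FDR = 2.57e-91, edgeR). Leucoanthocyanidin dioxygenase, which makes the coloured anthocyanidin, is encoded by *LDOX* (AT4G22880) with 25 reads in Col-0, 81 in *co-SAIL*, 1925 in 35S::miP1a and 60 in 35S::miP1b (log2 change 6.30 ± 0.33). In both genes the 3 other genotypes lay within 1 order of magnitude of each other and 35S::miP1a lay far above them all. *UGT79B1*, which adds xylose to the anthocyanin glucoside, had 11, 37, 1068 and 38 reads in Col-0, *co-SAIL*, 35S::miP1a and 35S::miP1b. In the same order of genotypes, the malonyltransferase gene *5MAT* had 7, 20, 436 and 14 reads. *TT19*, the glutathione S-transferase needed to bring the pigment into the vacuole, had 41, 124, 1634 and 91 reads. These 3 genes rose by 6.63 ± 0.47, 5.97 ± 0.57 and 5.34 ± 0.28 on the log2 scale. *co-SAIL* and 35S::miP1b both had more reads than Col-0 for each of the 5 genes named so far, and far fewer than 35S::miP1a. The genes were named for low Col-0 and high 35S::miP1a reads, which favours this order. Some differences from Col-0 were small, as for *DFR* with 19 reads in Col-0 and 23 in 35S::miP1b, and no test of them is given here. The flavonoid 3'-hydroxylase gene *TT7* increased from 42 to 721 reads, the glucosyltransferase gene *UGT75C1* from 325 to 2792 reads, the coumaroyltransferase gene *3AT1* from 50 to 201 reads and the sinapoyltransferase gene *SCPL10* from 83 to 356 reads. With the dispersion raised to 0.16, 9 of the 14 genes were still up-regulated, and *3AT1* (FDR = 0.145) and *SCPL10* (FDR = 0.0881) were among those that were not.

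Besides *TT7*, none of the 6 early flavonoid genes passed the test. Chalcone synthase, the entry into the flavonoids, was encoded by a transcript (*CHS*) with 14641 reads in Col-0 and 21240 in 35S::miP1a, a log2 change of 0.58 ± 0.17 that did not pass the test (FDR = 0.0096, edgeR). *CHI* had a log2 change of 0.28 ± 0.18, and flavonol synthase *FLS1* one of 0.23 ± 0.17. *MYB111*, which activates the flavonol branch, fell by 0.87 on the log2 scale (from 1228 to 652 reads). *F3H* was at 2, 2, 1 and 0 reads in the 4 genotypes, under the floor in each, so its change could not be judged. Why so few reads were assigned to *F3H*, beside 14641 to *CHS* in Col-0, was not tested.

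The regulators were divided. *PAP1*, the MYB activator of the late genes, rose from 33 to 377 reads with a log2 change of 3.55 ± 0.31, and *TT8*, the bHLH partner that the complex itself induces, rose from 4 to 183 reads (5.50 ± 0.74). The bHLH gene *GL3* (from 32 to 239 reads), the WRKY gene *TTG2* (from 54 to 297 reads) and the repressor gene *MYBL2* (from 55 to 249 reads), the last of which is itself a target of the complex, were up-regulated as well. The WD40 subunit gene *TTG1* did not pass the test (1927 reads in Col-0 and 1621 in 35S::miP1a), nor did *EGL3* (27 reads in Col-0 and 65 in 35S::miP1a, FDR = 0.00502, edgeR). *TRY*, an inhibitor of these complexes that also marks trichomes, fell by 1.23 on the log2 scale (from 139 to 57 reads). *PAP2* and *MYB114*, the paralogs of *PAP1*, stayed at or under the floor in both genotypes. In the direct comparison with 35S::miP1b (negative binomial likelihood ratio test, Benjamini-Hochberg adjusted over all genes), 13 of the 41 anthocyanin genes were at least 4-fold higher in 35S::miP1a with an adjusted p below 0.001, where 1.39% of all genes were. Compared with *co-SAIL* 11 genes were, where 0.765% of all genes were. *GL3*, with a log2 difference of 1.23, was less than 4-fold above 35S::miP1b.

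**Figure D3:**
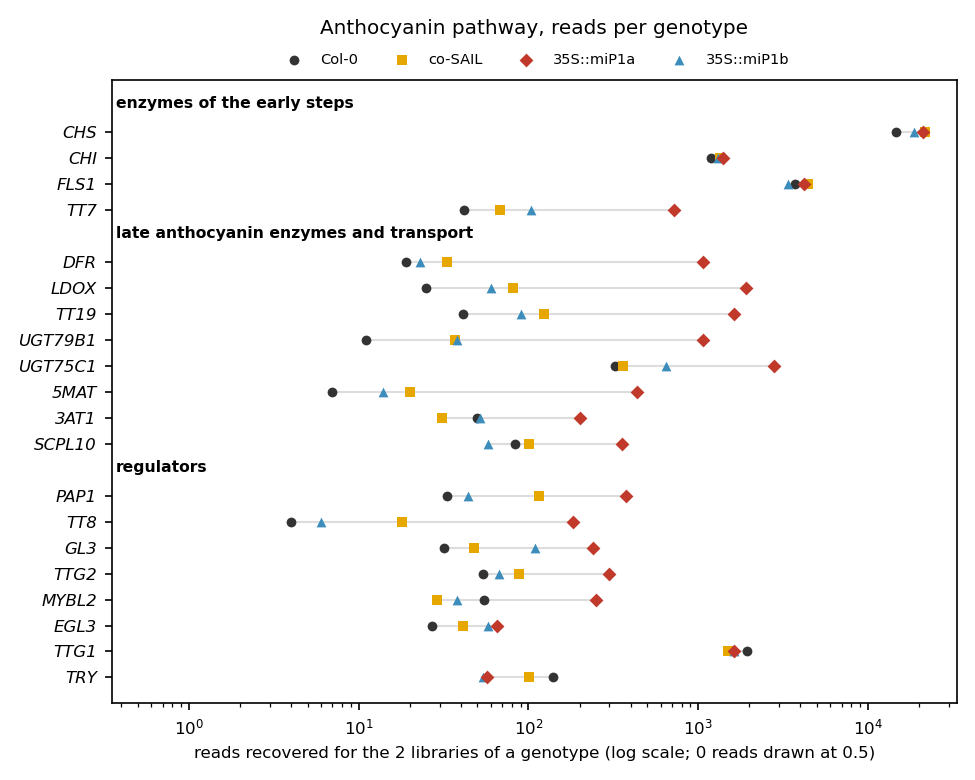
For each anthocyanin gene, the x axis gives the reads recovered for the 2 libraries of a genotype on a log scale, with 0 reads drawn at 0.5; circles are Col-0, squares *co-SAIL*, diamonds 35S::miP1a and triangles 35S::miP1b. Among the early enzymes *CHS*, *CHI* and *FLS1* have close values in all 4 genotypes and *TT7* does not, and for the late enzymes the diamond of 35S::miP1a stands to the right of all other symbols.

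The sequences upstream of 3 late genes are shown because these genes were up-regulated together. They are the 250 bases before the annotated gene start in TAIR10.1 (RefSeq), 5′ to 3′ on the strand of the gene, with the palindrome CACGTG in capitals. CACGTG is the G-box, to which bHLH and bZIP factors bind.
*UGT79B1*, chr5:21938397-21938646, minus strand: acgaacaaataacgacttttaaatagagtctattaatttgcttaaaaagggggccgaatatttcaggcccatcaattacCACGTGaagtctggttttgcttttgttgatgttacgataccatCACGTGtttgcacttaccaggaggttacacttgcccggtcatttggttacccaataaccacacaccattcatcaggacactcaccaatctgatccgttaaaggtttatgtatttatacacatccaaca
*LDOX*, chr4:12006210-12006459, minus strand: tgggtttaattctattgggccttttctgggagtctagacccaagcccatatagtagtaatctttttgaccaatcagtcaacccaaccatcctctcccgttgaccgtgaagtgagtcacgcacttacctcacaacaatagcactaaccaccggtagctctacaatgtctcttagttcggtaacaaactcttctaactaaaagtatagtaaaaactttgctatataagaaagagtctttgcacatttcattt
*DFR*, chr5:17166033-17166282, minus strand: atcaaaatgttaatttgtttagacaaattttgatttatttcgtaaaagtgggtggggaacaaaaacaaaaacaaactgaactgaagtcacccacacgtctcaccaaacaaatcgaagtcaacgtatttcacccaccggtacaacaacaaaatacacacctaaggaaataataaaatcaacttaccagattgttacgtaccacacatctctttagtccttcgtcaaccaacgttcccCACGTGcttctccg
The window of *UGT79B1* holds 2 matches, which begin 171 and 128 bases before the gene start. In *DFR* there is 1 match, 14 bases before the gene start, and in *LDOX* there is none. Over all 21906 tested genes with such a window 7.15% hold CACGTG on either strand. Of the 11 late anthocyanin genes 3 hold it, of the 124 up-regulated genes 13.7% and of the 68 down-regulated genes 10.3%. Of the 14 jasmonate output genes of the wound and MYC branch, described below, 0 hold it. The MYB element ANCNNCC, searched on both strands and able to overlap the G-box, lies in 9 of the 11 late windows, but also in 48.9% of all windows. A match describes the letters only.

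Jasmonate genes were listed by their role in synthesis, removal, signalling and output. Jasmonate is made from plastid lipids upon wounding, and it releases the MYC factors from their JAZ repressors. Across 14 genes of synthesis none was up-regulated, yet 4 rose, and 12 of 13 above the floor had positive changes. Over all genes, 0.565% were up-regulated and 1.98% rose, and 9790 of 20019 above the floor had positive changes. *LOX2*, the plastid lipoxygenase that starts the pathway, went from 41835 to 87115 reads, a 2.14-fold change. The allene oxide synthase gene *AOS* changed by 0.88 ± 0.17, and the cyclase genes *AOC1* and *AOC2* by 1.77 ± 0.18 and 0.72 ± 0.17. The 4 *AOC* genes are similar in sequence, so the share of each is uncertain. *OPR3*, *JAR1* and *ACX1* did not pass the test.

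Of 8 genes that remove jasmonate, 3 rose and 2 of these were up-regulated. Over all genes, 1.98% rose and 0.565% were up-regulated. *JOX3*, encoding a jasmonate oxidase, had 0 reads in Col-0, 4 in *co-SAIL*, 50 in 35S::miP1a and 2 in 35S::miP1b, at least 17.3-fold higher than in Col-0 (FDR = 3.25e-13, edgeR). *ST2A*, encoding a hydroxyjasmonate sulfotransferase, had 0 reads in Col-0, 6 in *co-SAIL*, 25 in 35S::miP1a and 6 in 35S::miP1b, at least 8.57-fold higher than Col-0. A further oxidase gene, *JOX2*, rose from 137 to 506 reads (1.92 ± 0.22), while *CYP94B1*, which oxidises the active conjugate, was counted at 0 reads in Col-0 and 12 in 35S::miP1a and just missed the threshold (FDR = 0.00132, edgeR). The removal and synthesis lists were not tested against each other.

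Among the 12 receptor and factor genes 2 were up-regulated and 1 was down-regulated, against 0.565% and 0.310% of all genes. *COI1*, the receptor, and *MYC2*, *MYC3* and *MYC4* did not pass the test, with log2 changes of 0.02, 0.44, 0.04 and -0.12. The NAC genes *NAC019* and *NAC055*, targets of MYC2, rose from 23 to 201 reads and from 3 to 28 reads. For *NAC055* the ratio was 9.61-fold (95% exact interval 2.97 to 49.4), and the call was lost at a dispersion of 0.16 (FDR = 0.0864). Of the 13 *JAZ* repressor genes, which jasmonate induces, 4 rose and 0 fell, against 1.98% and 1.44% of all genes. *JAZ5* had 22 reads in Col-0, 40 in *co-SAIL*, 217 in 35S::miP1a and 36 in 35S::miP1b, a log2 change of 3.32 ± 0.36, and *JAZ1*, *JAZ3* and *JAZ10* changed by 0.90 ± 0.18, 1.34 ± 0.19 and 1.53 ± 0.36. The bHLH gene *NIG1*, a calcium-binding relative of the MYC factors, went the other way. It had 57 reads in Col-0, 103 in *co-SAIL*, 0 in 35S::miP1a and 6 in 35S::miP1b, at least 18.5-fold lower than in Col-0 and still down-regulated at a dispersion of 0.16 (FDR = 3.39e-06). Its *co-SAIL* level was the highest of the 4 genotypes, so the loss was not shared with the *constans* mutant.

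Of the jasmonate lists, that of the outputs had the highest share of up-regulated genes, 11 of 22, against 0.565% of all genes. Of 14 genes of the wound and MYC branch in the table, 10 were up-regulated, 11 rose and 0 fell, and their median log2 change was 3.45, or 3.09 with genes under the floor set to 3 reads. *NATA1*, which makes the defence compound N-acetylornithine, had 2 reads in Col-0, 6 in *co-SAIL*, 653 in 35S::miP1a and 0 in 35S::miP1b, a ratio to Col-0 of 336-fold (95% exact interval 92.7 to 2782). *KTI1*, a Kunitz trypsin inhibitor, had 0 reads in Col-0, 0 in *co-SAIL*, 168 in 35S::miP1a and 0 in 35S::miP1b, at least 57.6-fold higher than Col-0, and reads were found in 35S::miP1a alone. A further Kunitz inhibitor gene, AT1G73325, had 61, 131, 609 and 346 reads in Col-0, *co-SAIL*, 35S::miP1a and 35S::miP1b, so it was raised in 35S::miP1b too. *TPS04* and *CYP82G1* act one after the other in the making of the volatile TMTT. *TPS04* rose from 8 to 202 reads (4.66 ± 0.54), and *CYP82G1* from 1 to 57 reads, a ratio of 58.7-fold (95% exact interval 10.1 to 2359). *BSMT1*, whose product makes methyl salicylate and methyl benzoate, was counted at 0 reads in Col-0 and 20 in 35S::miP1a, at least 6.84-fold higher. The jacalin lectin genes *JAL23* and *JAL35* rose from 74 to 839 reads and from 1111 to 4534 reads, and the ribonuclease gene *RNS1* from 10 to 70 reads.

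The classical storage protein markers disagreed with each other. *VSP1* was counted at 3 reads in Col-0 and 48 in 35S::miP1a, a ratio of 16.5-fold (95% exact interval 5.31 to 82.7), whereas *VSP2* had 58 reads in Col-0, 34 in *co-SAIL*, 52 in 35S::miP1a and 5 in 35S::miP1b and did not pass the test (log2 change -0.11 ± 0.32, FDR = 0.902, edgeR). The tyrosine aminotransferase gene *TAT3* rose from 1112 to 3654 reads, by 1.76 ± 0.17. In the ERF branch, which jasmonate and ethylene control together, 3 of 8 genes rose, against 1.98% of all genes. These were the defensin genes *PDF1.2a* (from 473 to 1092 reads), *PDF1.2b* (from 64 to 137 reads) and *PDF1.2c* (from 127 to 628 reads), whose sequences are nearly identical, so that the division of reads among them is uncertain. The branch regulator *ORA59* and the chitin-binding protein gene *PR4* did not pass the test. In the direct comparison with 35S::miP1b, 11 of 22 output genes were at least 4-fold higher in 35S::miP1a and 0 were lower, where 1.39% and 0.0638% of all genes were. Compared with *co-SAIL* 9 were higher, where 0.765% of all genes were. The up-regulated outputs numbered 6 in place of 11 at a dispersion of 0.16, and *VSP1* (FDR = 0.0032) was among the genes lost.

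After *miP1a*, the up-regulated genes with the most reads in 35S::miP1a were *BGLU18* of the leaf ER body and the lectin genes *MBP1* and AT1G52000. ER bodies are compartments of the endoplasmic reticulum in the Brassicales that store beta-glucosidases. Wounded leaves form them under jasmonate. The main enzyme of these bodies in wounded leaves, *BGLU18* (AT1G52400), had 1206 reads in Col-0, 3031 in *co-SAIL*, 26984 in 35S::miP1a and 3460 in 35S::miP1b, a log2 change of 4.53 ± 0.17 (FDR = 2.18e-115, edgeR). *TSA1*, a protein of the same bodies, rose from 337 to 3475 reads (3.41 ± 0.19). Both genes lie side by side on chromosome 1, *BGLU18* from 19514989 to 19518411 and *TSA1* from 19520603 to 19525685 on the plus strand, with 2191 bp between them. The ER body genes of seedlings and roots did not follow. *PYK10* was counted at 0 reads in Col-0 and 3 in 35S::miP1a, its regulator *NAI1* at 13 reads in Col-0 and 12 in 35S::miP1a and *NAI2* at 28 reads in Col-0 and 40 in 35S::miP1a.

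Myrosinase-binding proteins, jacalin lectins that associate with the enzymes cleaving glucosinolates, formed the second cluster on the same chromosome. *MBP1* (AT1G52040) had 515 reads in Col-0, 1921 in *co-SAIL*, 16599 in 35S::miP1a and 1722 in 35S::miP1b, a log2 change of 5.05 ± 0.18. *MBP2* rose from 13 to 278 reads and the lectin gene AT1G52000 from 910 to 11053 reads. The 3 genes lie between 19333088 and 19352791 on the minus strand, and no other tested gene lies between them. Their sequences are related, so reads may be shared between copies. The GDSL lipase genes AT1G54010 and AT1G54020, homologs of myrosinase-associated proteins, rose from 40 to 180 reads and from 1 to 42 reads and are neighbours as well. The myrosinases themselves changed less. *TGG1* did not pass the test (0.30 ± 0.17), and *TGG2* rose by 0.70 ± 0.17. *NSP1*, which turns glucosinolate breakdown towards nitriles, rose from 208 to 603 reads, and the specifier genes *ESM1* and *ESP* did not pass the test. Of the 18 genes listed, 7 were up-regulated, 9 rose and 0 fell, and 7 were also at least 4-fold above 35S::miP1b. Over all genes these shares were 0.565%, 1.98%, 1.44% and 1.39%. *co-SAIL* and 35S::miP1b both exceeded Col-0 for *BGLU18*, *MBP1*, *TSA1* and AT1G52000, and 35S::miP1a was the highest of the 4 genotypes for each of them. The choice of genes low in Col-0 and high in 35S::miP1a favours this order too.

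Glucosinolate synthesis itself showed no up- or down-regulated gene among 24, with 4 rising and 2 falling. Over all genes, 1.98% rose and 1.44% fell. *CYP79F1* and *MAM3* of the aliphatic branch rose from 6428 to 10669 reads and from 350 to 682 reads. In the indole branch, the MYB regulator gene *MYB34* and the methyltransferase gene *IGMT1* fell, with log2 changes of -1.13 ± 0.19 and -1.55 ± 0.36. *PAD3* and *CYP71A13*, which make the phytoalexin camalexin, rose by 1.17 ± 0.19 and 0.94 ± 0.18, and *PAD3* had 388 reads in Col-0, 378 in *co-SAIL*, 848 in 35S::miP1a and 24 in 35S::miP1b.

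Up-regulated genes lay next to each other on a chromosome in 7 pairs, which comprise 13 of the 124 genes, and down-regulated genes in 2 pairs of 4 genes. How many pairs lists of the same length drawn from all tested genes would hold was not computed, so these counts show no excess. Besides the pairs named above, the up-regulated pairs were *SCPL10* with *SCPL9* and *TSPO* with AT2G47780 on chromosome 2, and AT4G29690 with AT4G29700 on chromosome 4. The down-regulated pairs were AT4G12490 with AT4G12500, which encode lipid transfer protein relatives, and AT4G29020 with AT4G29030, both on chromosome 4. Members of a pair often belong to the same family, so their reads may not be fully separate.

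Abscisic acid genes changed in part. This hormone rises under water loss and acts through receptors that inhibit the clade A protein phosphatases. Of 35 genes, 7 were up-regulated, 1 was down-regulated and 23 did not pass the test. Over all genes, 0.565% were up-regulated and 0.310% down-regulated. *NCED9*, encoding an enzyme of the rate-limiting step, had 0 reads in Col-0, 0 in *co-SAIL*, 29 in 35S::miP1a and 0 in 35S::miP1b, at least 9.99-fold higher, whereas *NCED3*, which carries this step in stressed leaves, did not pass the test (89 reads in Col-0 and 100 in 35S::miP1a). *CYP707A2*, which degrades the hormone, rose from 76 to 192 reads. Among the phosphatase genes, *HAI1* rose from 2 to 58 reads, a ratio of 29.9-fold (95% exact interval 7.9 to 252), and *HAI2* from 6 to 36 reads, while *ABI1*, *ABI2*, *HAB1* and *HAB2* did not pass the test. The response genes *HB7* (from 178 to 740 reads), *AFP1* (log2 change 2.01 ± 0.33) and *NAC096* (2.15 ± 0.53) were up-regulated, as was *TSPO* with 0 reads in Col-0 and 14 in 35S::miP1a. The standard markers *RAB18* and *RD29A* had log2 changes of 0.90 ± 0.20 and 0.07 ± 0.17, of which the first passed the test. The lipid transfer genes *LTP3* and *LTP4*, induced by the hormone, fell. *LTP4* had 87 reads in Col-0, 0 in *co-SAIL*, 2 in 35S::miP1a and 58 in 35S::miP1b, a ratio of 42.2-fold (95% exact interval 11.3 to 354) between Col-0 and 35S::miP1a, and *LTP3* fell from 312 to 82 reads. Of the 7 up-regulated genes 2 remained so at a dispersion of 0.16. Of 10 ethylene synthesis genes, *ACS2* was up-regulated with 0 reads in Col-0 and 20 in 35S::miP1a, and the others did not pass the test.

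Senescence genes changed in part. Of 14 regulators and markers in the table, 4 were up-regulated, 6 rose and 1 fell. Over all genes these shares were 0.565%, 1.98% and 1.44%. *WRKY75* (from 8 to 79 reads), a factor that speeds leaf ageing, *NAC016* (from 48 to 256 reads), which promotes chlorophyll loss, and the alcohol dehydrogenase relative *SAG13* (from 137 to 696 reads) were up-regulated. *ORE1*, the NAC factor at the head of age-dependent senescence, rose by 1.34 ± 0.26. *SAG21* fell by 0.75 on the log2 scale, and *NAP* and *WRKY53* did not pass the test. None of the 6 chlorophyll breakdown genes passed the test, with *PAO* at 0.37 ± 0.17, *SGR1* at -0.03 ± 0.18 and *NYC1* at -0.30 ± 0.17. At a dispersion of 0.16 none of the 4 genes was up-regulated, with FDR values from 0.0045 for *WRKY75* to 0.0307 for *SRG1*.

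In starch and sugar metabolism 3 of 28 genes were up-regulated and 0 fell, and *BAM5* alone kept its call at a dispersion of 0.16. Over all genes, 0.565% were up-regulated and 1.44% fell. *BAM5*, a beta-amylase of the phloem, had 17 reads in Col-0, 18 in *co-SAIL*, 314 in 35S::miP1a and 57 in 35S::miP1b (4.25 ± 0.40). *AMY1*, an alpha-amylase secreted in stressed leaves, rose from 72 to 421 reads, and *SWEET13*, a sucrose exporter, from 28 to 203 reads, with FDR values of 0.0111 and 0.00481 at that dispersion. The enzymes that degrade starch in the chloroplast at night, *BAM3*, *GWD1* and *SEX4*, did not pass the test, with log2 changes of 0.03, 0.32 and 0.02.

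More salicylic acid genes fell than rose. Salicylic acid is the hormone of defence against biotrophic pathogens and opposes jasmonate in many settings. Of 32 genes, 0 were up-regulated, 5 were down-regulated, 10 fell and 1 rose. Over all genes these shares were 0.565%, 0.310%, 1.44% and 1.98%. Of the listed genes that fell, 4 belong to the 19 genes of synthesis and regulation and 6 to the 13 outputs. The synthesis genes *ICS1*, *PBS3* and *EDS5* did not pass the test, with log2 changes of 0.27 ± 0.19, 0.69 ± 0.19 and 0.13 ± 0.20, and neither did the receptor gene *NPR1* (-0.26 ± 0.17). *ACD6*, an ankyrin protein that amplifies the hormone signal, fell from 48186 to 27029 reads (-0.79 ± 0.17). Among the outputs, the glucanase gene *BG3* had 4626 reads in Col-0, 1235 in *co-SAIL*, 1068 in 35S::miP1a and 655 in 35S::miP1b, and *PCC1*, a small membrane protein gene, had 12389 reads in Col-0, 9270 in *co-SAIL*, 2949 in 35S::miP1a and 7076 in 35S::miP1b. The ankyrin gene AT4G14390 had 412 reads in Col-0, 131 in *co-SAIL*, 41 in 35S::miP1a and 12 in 35S::miP1b (-3.29 ± 0.29), and it was the 1 member that kept its call at a dispersion of 0.16 (FDR = 0.000327). *YLS9* and the receptor kinase gene *CRK20* were down-regulated as well. *FRK1*, *WRKY38*, *NIMIN1* and *NIMIN2* fell, with log2 changes of -1.62 ± 0.30, -1.38 ± 0.32, -1.18 ± 0.25 and -1.12 ± 0.21.

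The pathogenesis-related genes moved apart from each other. *PR2*, a beta-1,3-glucanase gene, had 12373 reads in Col-0, 3240 in *co-SAIL*, 35861 in 35S::miP1a and 1457 in 35S::miP1b, so 35S::miP1a was the highest of the 4 genotypes and 35S::miP1b the lowest. Its log2 change was 1.58 ± 0.17 (FDR = 6.13e-18, edgeR). *PR1* had 4744 reads in Col-0, 918 in *co-SAIL*, 3191 in 35S::miP1a and 4 in 35S::miP1b and changed by -0.53 ± 0.17, which did not pass the test (FDR = 0.0243, edgeR), and *PR5* had 16652 reads in Col-0, 10562 in *co-SAIL*, 15516 in 35S::miP1a and 4830 in 35S::miP1b (-0.06 ± 0.17). Compared with 35S::miP1b directly, 10 of the 32 salicylic acid genes were at least 4-fold higher in 35S::miP1a and 0 were lower, where 1.39% and 0.0638% of all genes were.

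In the stomatal lineage 4 of 19 genes fell and the others did not pass the test. Over all genes, 1.44% fell and 0.310% were down-regulated. Stomata arise from protodermal cells through the bHLH factors SPCH, MUTE and FAMA, in that order, with EPF2 as the signal by which early precursors keep their neighbours from joining the lineage. The 3 down-regulated genes were *EPF2*, *MUTE* and *POLAR*. *EPF2* had 39 reads in Col-0, 26 in *co-SAIL*, 2 in 35S::miP1a and 0 in 35S::miP1b, a ratio of 18.9-fold (95% exact interval 4.9 to 162) between Col-0 and 35S::miP1a. *MUTE* had 45 reads in Col-0, 28 in *co-SAIL*, 8 in 35S::miP1a and 0 in 35S::miP1b (log2 change -2.46 ± 0.58) and the polarity gene *POLAR* 48 reads in Col-0, 19 in *co-SAIL*, 11 in 35S::miP1a and 6 in 35S::miP1b (-2.09 ± 0.51). *SDD1*, a protease that limits stomatal number, fell from 154 to 43 reads. For *EPF2*, *MUTE* and *POLAR* the *co-SAIL* reads lay between those of Col-0 and 35S::miP1a, an order that the choice of these genes favours. The 35S::miP1b reads were lower by a few reads, and *EPF2* was under the floor in both overexpression lines. In the direct comparison 1 of the 19 genes was at least 4-fold higher in 35S::miP1a than in 35S::miP1b, where 1.39% of all genes were. *SPCH* (70 reads in Col-0 and 54 in 35S::miP1a) and *FAMA* (1021 reads in Col-0 and 884 in 35S::miP1a), which mark the entry and the last step, did not pass the test, nor did *TMM*, *ICE1* or the receptor genes. In these whole-leaf samples fewer precursor cells and less RNA per cell cannot be told apart, and the counts were small. *EPF2*, *MUTE* and *POLAR* lost their calls at a dispersion of 0.16 (FDR from 0.00531 to 0.336).

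Some epidermal genes fell with them. *PDF1*, a protodermal proline-rich protein gene, had 901 reads in Col-0, 655 in *co-SAIL*, 67 in 35S::miP1a and 12 in 35S::miP1b (-3.70 ± 0.25), and *CYP77B1* had 59 reads in Col-0, 21 in *co-SAIL*, 0 in 35S::miP1a and 0 in 35S::miP1b, at least 19.1-fold lower. Both kept their calls at a dispersion of 0.16. *MYB16*, a cuticle regulator, fell by 0.96 on the log2 scale, and *LTP2* fell from 145 to 38 reads. Conversely, the fatty acid elongase gene *KCS2* was up-regulated (from 186 to 1010 reads), and the wax reductase gene *CER4* rose by 1.45 ± 0.31. *ATML1* and *PDF2*, the factors that set epidermal identity, had log2 changes of 0.03 ± 0.17 and 0.00 ± 0.17, and the cuticle genes *CER1*, *CER6*, *LTP1* and *FDH* did not pass the test. None of 25 cell division genes and none of 9 expansin genes passed the test. With 1.98% of all genes rising and 1.44% falling, 0 genes in lists this short is near the share over all genes. Of the 12 mitosis genes 11 had negative changes, with a median of -0.39. Among all genes above the floor, 10229 of 20019 changes were negative.

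**Figure D4:**
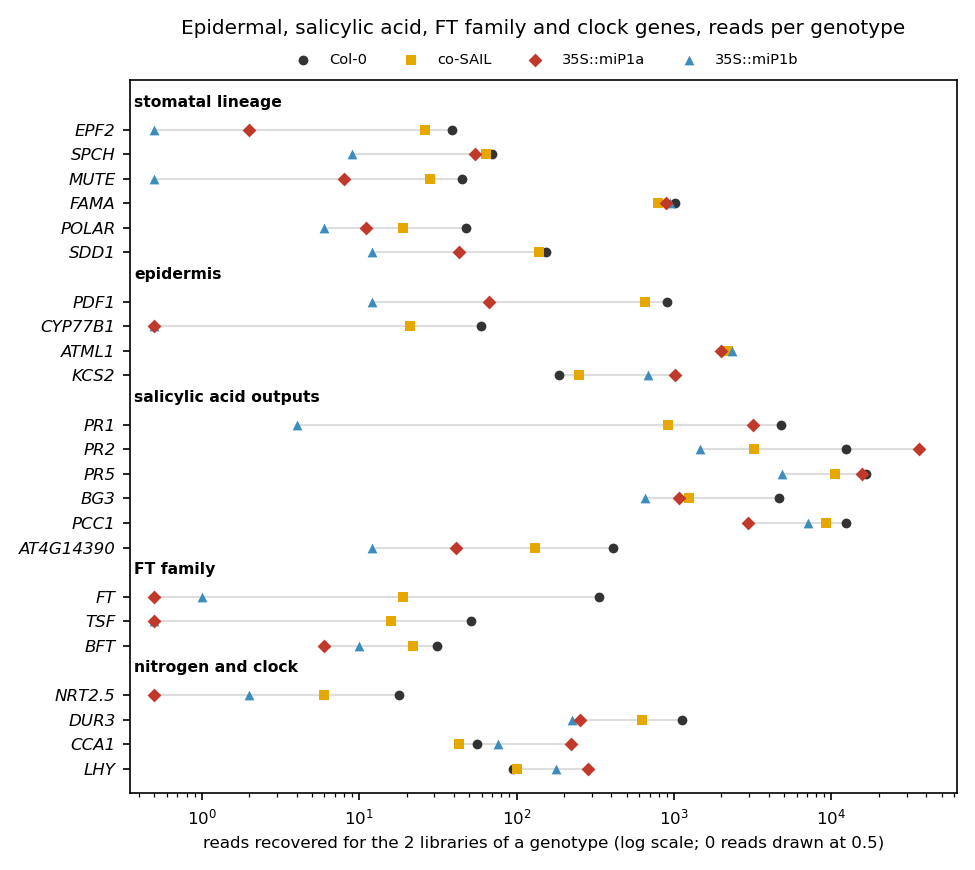
Reads per genotype on a log x axis, with 0 reads drawn at 0.5, for genes of the stomatal lineage, the epidermis, salicylic acid outputs, the *FT* family, nitrogen uptake and the clock. For *EPF2*, *MUTE*, *PDF1* and *CYP77B1* the diamonds of 35S::miP1a and the triangles of 35S::miP1b lie to the left of Col-0, while for *PR1* and *PR2* the 2 overexpression lines are far apart.

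The 2 down-regulated flowering genes were *FT* and *TSF*. FT and its closest relative TWIN SISTER OF FT (TSF) are mobile signals made in the leaf, and both are targets of CO. *FT* had 334, 19, 0 and 1 reads in Col-0, *co-SAIL*, 35S::miP1a and 35S::miP1b. *TSF* had 51 reads in Col-0, 16 in *co-SAIL*, 0 in 35S::miP1a and 0 in 35S::miP1b, at least 16.5-fold lower than Col-0 (FDR = 7.24e-13, edgeR), and kept its call at a dispersion of 0.16 (FDR = 8.74e-06). Neither transcript had a read in 35S::miP1a. The related *BFT* reached 31 reads in Col-0 and 6 in 35S::miP1a and did not pass the test (FDR = 0.00174). *CO* transcript did not pass it either (0.10 ± 0.23), so the loss of both targets went along with *CO* reads of 170, 176, 177 and 229 reads in the 4 genotypes. Among the flowering genes outside this family 4 rose and 3 fell, where 1.98% and 1.44% of all genes did. *MAF5*, a MADS-box repressor gene, was the 1 up-regulated gene with 17, 245, 518 and 96 reads, and it was raised in *co-SAIL* and 35S::miP1b too. The AP2-type repressor genes *SMZ* and *SNZ* moved in opposite directions, from 152 to 362 reads and from 1167 to 463 reads. *CDF2*, a repressor of *CO* and *FT*, rose by 0.94 ± 0.21, and *FUL* and *SOC1* fell by 1.93 and 0.75 on the log2 scale.

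The windows before *FT* and *TSF* are shown because these are the targets of CO that lost their reads. They are 250 bases before the gene start in TAIR10.1, 5′ to 3′ on the gene's strand, and capitals mark CCACA, the sequence bound by CO together with NF-Y subunits, or its complement TGTGG.
*FT*, chr1:24331123-24331372, plus strand: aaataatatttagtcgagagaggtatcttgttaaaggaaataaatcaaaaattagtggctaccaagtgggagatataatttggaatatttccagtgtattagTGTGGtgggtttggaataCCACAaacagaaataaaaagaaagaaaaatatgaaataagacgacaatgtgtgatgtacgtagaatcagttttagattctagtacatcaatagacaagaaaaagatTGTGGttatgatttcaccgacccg
*TSF*, chr4:11003011-11003260, minus strand: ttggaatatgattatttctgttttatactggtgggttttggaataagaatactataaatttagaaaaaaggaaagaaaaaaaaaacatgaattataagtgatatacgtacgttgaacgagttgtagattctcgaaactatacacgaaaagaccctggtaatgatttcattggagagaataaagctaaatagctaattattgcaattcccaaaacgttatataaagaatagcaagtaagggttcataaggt
The window of *FT* holds 3 matches, beginning 148, 130 and 24 bases before the gene start, and that of *TSF* holds none. Of all 21906 windows, 28.6% hold CCACA on either strand, and of the windows of up- and down-regulated genes 37.1% and 27.9% do.

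Of the 10 morning genes of the circadian clock 3 rose, against 1.98% of all genes, and 7 did not pass the test. *CCA1* had 56 reads in Col-0, 43 in *co-SAIL*, 221 in 35S::miP1a and 76 in 35S::miP1b (2.03 ± 0.27) and *LHY* 95 reads in Col-0, 101 in *co-SAIL*, 285 in 35S::miP1a and 178 in 35S::miP1b (1.63 ± 0.24), and *LNK2* rose by 0.92 ± 0.20. *ELF4*, an evening gene, fell by 0.77 on the log2 scale, while *TOC1*, *LUX* and *GI* did not pass the test. *ELF4* was the 1 of 7 evening genes that passed. *CCA1* lost its call at a dispersion of 0.16 (FDR = 0.151), and *LHY* did not pass there either (FDR = 0.451, negative binomial test). *co-SAIL* did not share the rise, since its *CCA1* and *LHY* reads were close to those of Col-0 and the difference of 35S::miP1a from it had adjusted p = 1.86e-14 and 9.25e-08 (negative binomial test, all genes).

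Of the 19 light-harvesting and photosystem genes 4 rose, against 1.98% of all genes. *LHCB1.1*, *LHCB1.2*, *LHCB2.1* and *LHCB2.2*, which encode antenna proteins of photosystem II, changed by 1.29 ± 0.17, 0.86 ± 0.17, 1.41 ± 0.18 and 1.38 ± 0.19. Copies within *LHCB1* and within *LHCB2* are nearly identical, and their reads may not be fully separate, since *LHCB1.3*, the most covered copy, stood at 117472 reads in Col-0 and 133296 in 35S::miP1a and did not pass the test. None of 10 carbon fixation genes passed the test. Of 8 heat shock genes in the table none passed the test, and of 10 cold response genes *COR15A* rose. As 1.98% of all genes rose and 1.44% fell, lists this short with 0 such genes are near the share over all genes.

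In the nutrient lists, 2 of 28 genes were up-regulated and 2 down-regulated, and *LSU1* alone kept its call at a dispersion of 0.16. Over all genes, 0.565% were up-regulated and 0.310% down-regulated. The nitrogen starvation genes *NRT2.5* and *DUR3*, which encode a nitrate transporter and a urea transporter, were counted at 18 reads in Col-0 and 0 in 35S::miP1a and 1125 reads in Col-0 and 253 in 35S::miP1a. *NRT2.5* was thereby at least 5.83-fold lower and *DUR3* fell by 2.11 on the log2 scale. *LSU1*, a gene of the sulfur deficit response, had 4 reads in Col-0, 31 in *co-SAIL*, 66 in 35S::miP1a and 22 in 35S::miP1b, whereas *LSU2*, *SDI1* and *APR1* to *APR3* did not pass the test. *FRO4*, a ferric chelate reductase gene, rose from 39 to 153 reads. At that dispersion *NRT2.5*, *DUR3* and *FRO4* had FDR values of 0.0106, 0.0823 and 0.191.

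Outside the lists, 67 up-regulated and 52 down-regulated genes remained, *miP1a* itself among the first. *ELI3-2* (AT4G37990), an aromatic alcohol dehydrogenase gene induced by elicitors, had 0 reads in Col-0, 0 in *co-SAIL*, 150 in 35S::miP1a and 0 in 35S::miP1b, at least 51.4-fold higher than in Col-0. AT3G28220, annotated as a TRAF-like protein gene, had 578 reads in Col-0, 1576 in *co-SAIL*, 10862 in 35S::miP1a and 619 in 35S::miP1b (4.27 ± 0.18). *CML41*, a calmodulin-like gene, had 1341 reads in Col-0, 1564 in *co-SAIL*, 7865 in 35S::miP1a and 266 in 35S::miP1b. AT5G15500, an ankyrin gene, rose from 4 to 109 reads, the glutamate decarboxylase gene *GAD* from 6 to 130 reads, and the cellulose synthase-like gene *CSLG2* from 10 to 166 reads. AT2G07732, annotated as a Rubisco large chain, rose from 628 to 2499 reads, but its sequence is shared with the organelles and its reads are uncertain. AT4G16260, a glycosyl hydrolase gene, had 160 reads in Col-0, 315 in *co-SAIL*, 781 in 35S::miP1a and 6 in 35S::miP1b.

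Among the 52 down-regulated genes outside the lists, AT2G33850, annotated as an E6-like protein gene, had 337 reads in Col-0, 243 in *co-SAIL*, 4 in 35S::miP1a and 0 in 35S::miP1b, a log2 change of -6.32 ± 0.75 (FDR = 9.54e-52, edgeR). The thionin gene *THI2.2* had 79 reads in Col-0, 90 in *co-SAIL*, 1 in 35S::miP1a and 2 in 35S::miP1b, a ratio of 76.7-fold (95% exact interval 13.4 to 3068) between Col-0 and 35S::miP1a. AT3G16670, of the Ole e 1 family, fell from 7030 to 828 reads, the defensin-like gene AT3G05730 from 7021 to 1444 reads, the glycine-rich gene AT4G29020 from 1987 to 412 reads and its neighbour AT4G29030 from 68 to 2 reads. The lipid transfer gene AT1G62510 fell from 91 to 5 reads, the desaturase gene AT1G06360 from 886 to 156 reads, the chitinase gene AT2G43590 from 741 to 165 reads and *CYP71B22* from 309 to 64 reads. *ERF53*, a drought-responsive AP2 factor gene, fell from 142 to 18 reads, the VQ motif gene AT4G20000 from 60 to 6 reads and the DUF241 gene AT1G76240 from 63 to 8 reads. The small gene AT1G36622 fell from 44 to 5 reads and the noncoding gene AT3G61198 from 39 to 4 reads. For most of these genes both the *co-SAIL* and the 35S::miP1b values lay below Col-0, and AT2G33850 and AT4G29030 had 0 reads in 35S::miP1b. These genes were chosen as high in the same Col-0 libraries, which by itself favours lower values in any other genotype.

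Both lists were compared with the other genotypes. In direct tests against 35S::miP1b, 85 of the 124 up-regulated genes were at least 4-fold higher in 35S::miP1a (adjusted p below 0.001, negative binomial test), where 1.39% of all genes were. Of the 68 down-regulated genes, 8 were at least 4-fold lower than in 35S::miP1b, where 0.0638% of all genes were. Compared with *co-SAIL*, 77 of the 124 were higher and 27 of the 68 lower, where 0.765% and 0.228% of all genes were. The genes of both lists were chosen on the same 35S::miP1a libraries, which raises all 4 counts, and a gene near the floor in 35S::miP1a and in the other genotype cannot pass, with 24 of the 68 down-regulated genes at or under it in 35S::miP1a. The 2 lists therefore cannot be set against each other by these counts. At a dispersion of 0.16 the 4 counts were 47, 2, 23 and 4.

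Genes just inside and just outside the 4-fold limit were close to each other. *AFP1* and AT1G22490 were just above it, with log2 changes of 2.01 and 2.01, and *MYB47* and AT3G27970 just under it, with 1.97 and 1.97. Among the genes that fell, AT2G43610 and *PCC1* were just inside with -2.02 and -2.03, and *KCS19* and AT1G57850 just outside with -1.99 and -1.98.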

How the data were processed

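RNA from leaves of 8 libraries in 4 genotypes was sequenced by the authors on an Illumina HiSeq2000 after TruSeq preparation. Per the labels and methods, the authors clipped reads with Trimmomatic 0.32, mapped them to TAIR10 with Bowtie in RobiNA, counted reads per gene and fitted edgeR 2.6.12. The treatment of reads with several matches is not given in the sources used here. The log2 values in the deposited tables are fold changes of Col-0 over a genotype, and mean CPM over all libraries. The score the authors deposited is the likelihood ratio (1 degree of freedom). The deposited p-value and FDR follow from it, Benjamini-Hochberg adjusted over 21960 genes. These columns are the authors' own fit, and no column holds a single library.

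The sign was turned to 35S::miP1a over Col-0. The reads of each genotype were recovered gene by gene from the fold changes, their prior count and the mean abundance, with effective library sizes from the 353 genes of 1 read in total. Among genes of fewer than 20 reads 100% of the values lay within 0.1 of a whole number, from 20 to 100 reads 94.1%, and from 100 to 500 reads 52.6%, so larger values are approximate. The likelihood ratio recomputed on these reads was 1.00 times the deposited value in the median over 3697 genes. It gave the dispersion, and the same negative binomial test compared 35S::miP1a with 35S::miP1b and *co-SAIL*. Intervals of ratios are exact binomial at 95% and cover counting error only. The recovery was tested on simulated data. Gene members, lists and windows were chosen with earlier results of these data known. Named genes are list members, the 20 smallest p-values and 10 largest changes in each direction, neighbours, and genes next to the fold limit. Listed genes absent from the table were not analysed here. Positions are from TAIR10.1, which matched 21912 genes. Alternatives were other fold, FDR, abundance and dispersion limits and scalings. Calculations ran in Python 3.11.15 with SciPy 1.17.1, NumPy 2.4.6, matplotlib 3.10.9 and pandas 2.3.3.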

Additional observations from a re-analysis of the deposited data

Results flagged for a closer look

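Of the listed and up- or down-regulated genes, 9 moved in opposite directions in the 2 overexpression lines. Each had an FDR below 0.001 against Col-0 in the deposited edgeR tests. Across all 21960 tested genes, 28 had opposite changes at this FDR. All 9 were higher in 35S::miP1a and lower in 35S::miP1b. They also differed between the lines in a direct negative binomial test, with an adjusted p below 0.001 even at a dispersion of 0.16. The genes were chosen for opposite changes from the same Col-0 libraries. A direct difference between the lines follows from that choice and adds no separate support. The largest difference was that of *SAG13*, 7.16 on the log2 scale (137 reads in Col-0, 60 in *co-SAIL*, 696 in 35S::miP1a and 5 in 35S::miP1b). For the glucanase relative AT4G16260 it was 7.07, for the camalexin gene *PAD3* 5.24, for the lectin gene *JAL23* 5.05, for *CML41* 4.98, for *TAT3* 4.89 and for *PR2* 4.72. For the abscisic acid hydroxylase gene *CYP707A2* it was 3.86 and for AT3G22910, an E1-E2 type ATPase gene, 3.83. Both lines are compared with the same Col-0 libraries, and with 1 line each a difference between the microProteins and one between the plant pools cannot be told apart.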

How the results depend on the processing

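The number of up-regulated genes, 124 in 35S::miP1a against Col-0, was 297 at a minimum fold change of 2, 211 at an FDR below 0.05, and 69 among genes of at least 1 CPM, with or without adjustment over them alone. The 68 down-regulated genes became 239, 167, 24 and 24 under the same alternatives, and 32 at an FDR below 1e-06. At a dispersion of 0.16 the counts were 39 and 12. Against 35S::miP1b, 305 genes were higher and 14 lower in 35S::miP1a, and at that dispersion 108 and 6. Against *co-SAIL*, 168 were higher and 50 lower, and at that dispersion 28 and 7. The other alternatives kept each count within 1.5 times, including 3 reads in place of fewer, centred fold changes, scaling by total reads (119 and 71) and a dispersion of 0.04. Of the 192 genes of both lists, 51 kept their call at a dispersion of 0.16, 155 at 0.04 and all 192 with centred fold changes, which moved changes by 0.01 (log2), and no direction was turned. No paired analysis was possible because the columns carry no library, and for the same reason no library could be left out. Depth limits genes near 3 reads, whose changes are bounds. How much plants of 1 genotype differ from each other was not measured here.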
